A study of Mus musculus with 23 samples.

Results

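The 10 genes described here, Hmox1, Nqo1, Gclc, Gclm, Srxn1, Txnrd1, Prdx1, Slc7a11, Cat and Sod2, are targets of the transcription factor NRF2 and enzymes that remove oxidants. They are the rows with these symbols among the 35976 genes of the count table, which covers 23 libraries of microglia from the mouse striatum, and all 10 passed the filter on low counts. The microglia came from male C57BL/6J mice, given as 9 weeks old, that pressed a lever for intravenous infusions in daily 2-hr sessions over 15 days. The Abstinence group (n = 7) took methamphetamine at 0.05 mg/kg per infusion and then stayed off the drug in its home cages for 21 days. The Maintenance group (n = 8) took the same dose and was collected after the last session. The Saline group (n = 8) took saline through the same kind of catheter and was also collected after the last session. None of the 23 libraries is from mice that took saline and then waited 21 days, so drug history, age and home cage time cannot be told apart in Abstinence. The isolation method is not given in the sources used here. The labels do not say that each replicate is a separate animal, so p-values measure the spread between libraries, which may be partly technical.

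NRF2, encoded by Nfe2l2, is held at a low level by the adaptor KEAP1, which directs it to degradation. Oxidants and electrophiles modify KEAP1, and NRF2 then accumulates, pairs with small MAF proteins and binds antioxidant response elements near its targets, which make glutathione, recycle oxidised thiols, break down heme and reduce quinones. Catalase and the mitochondrial superoxide dismutase, which remove hydrogen peroxide and superoxide, also answer to other regulators. Methamphetamine raises extracellular dopamine in the striatum, and the oxidation of dopamine is a known source of reactive oxygen species there.

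The antioxidant response element has the core TGACNNNGC. Both strands were searched in RefSeq windows from 250 bases before to 50 bases after a gene start (GRCm38.p6), which the table holds for 8 of the 10 genes and not for Hmox1 and Gclc. The core occurred in a window of 4 of these 8 genes (50.0%), against 14.0% of the 27025 genes with a window. The stretches around the core are shown for the 3 genes in which it lies before the start, because this is the pattern of letters that NRF2 is known to bind, and the capitals mark the core, which is on the strand opposite to the gene in each.
Prdx1: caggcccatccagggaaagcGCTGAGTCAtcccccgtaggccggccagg
Gclm: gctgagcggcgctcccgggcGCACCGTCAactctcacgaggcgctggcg
Txnrd1: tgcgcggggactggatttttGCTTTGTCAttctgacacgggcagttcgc
The Prdx1 stretch (chr4:116685446-116685494, plus strand) holds the core at positions -133 to -125 from the start and lies in no annotated gene. The Gclm stretch (chr3:122245403-122245451, plus strand) holds it at -134 to -126, also outside annotated genes. These positions count from the start used for the window, which lies a little inside the gene span given below. The Txnrd1 stretch (chr10:82859094-82859142, plus strand) holds it at -92 to -84 from a start inside the gene and is intronic. In Srxn1 the core lies after the start, at 28 to 36. The windows of Nqo1, Slc7a11, Cat and Sod2 do not hold these letters, which says nothing about NRF2 binding elsewhere. For Slc7a11 the window (chr3:50443564-50443863, minus strand) is set on a start inside the gene, so the outer end of the gene was not searched. A match is a description and not a measured binding site.

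Total counts were 71.2 to 94.8 M (1e6) per library in Abstinence, 55 to 94.6 M in Maintenance and 55.4 to 84.6 M in Saline. Levels are given as CPM, counts per 1e6 counts with TMM-scaled library sizes. The labelled cell type is microglia, and the labelled tissue is neuronal. The 9 microglial markers, among them Tmem119 and P2ry12, summed to 30557 to 36439 CPM in Abstinence, 25610 to 37012 CPM in Maintenance and 28439 to 36437 CPM in Saline, and 0 of 9 passed in any comparison. The 10 neuronal markers summed to at most 377 CPM, in Maintenance 8, and the next library, Abstinence 5, had 118 CPM. The library Maintenance 8 stood apart in another list as well: 8 markers of choroid plexus and ependyma summed to 73704 CPM there. The other 22 libraries had 23.1 to 355 CPM. The medians of this choroid plexus and ependymal sum were 253 CPM in Abstinence, 237 CPM in Maintenance and 78.1 CPM in Saline. Of the 6 of these markers tested, 2 rose in Maintenance against Saline (Enpp2 and Sostdc1, edgeR). Folr1 had a log2 fold change of 8.25 there (edgeR adjusted p = 0.122). Foxj1 had 0.69, Ccdc153 -0.91 and Tmem212 -0.99 (adjusted p = 0.941, 0.886 and 0.884), so the list did not move as a whole. Without Maintenance 8, 0 of the 5 tested passed in any comparison. The microglial sum of Maintenance 8 was the lowest of the 23. Maintenance 6 and 7 had the fewest genes with a count, 12459 and 12740, against 14727 to 17034 in the others. Most results that rest on these libraries are given with and without them.

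Between genes, levels were compared per kilobase of exon (the union of a gene's GENCODE exons). In Saline, Prdx1 was the most abundant at 94.1 ± 6.54 CPM per kb (SD, n = 8), followed by Cat at 52.5 ± 5.27, Hmox1 at 25.8 ± 5.45 and Sod2 at 6.59 ± 0.52 CPM per kb. The ranges of these 4 genes over the Saline libraries did not overlap with each other or with the genes below them. Txnrd1 had 3.45 ± 0.46 CPM per kb in Saline, Gclc 3.08 ± 0.76, Gclm 1.66 ± 0.54, Srxn1 1.31 ± 0.52, Nqo1 0.51 ± 0.47 and Slc7a11 0.30 ± 0.11 CPM per kb. Neighbours among these 6 overlapped in range. In Abstinence the order of the 10 genes was the same. In Maintenance, Nqo1 moved up to rank 5 at 4.99 ± 11.3 CPM per kb (SD, n = 8), with a highest library of 32.8 CPM per kb, and Gclc stood over Txnrd1 and Srxn1 over Gclm within their spread. Without Maintenance 8, Nqo1 averaged 1.02 ± 0.88 CPM per kb (SD, n = 7) and stood at rank 9, as in the other groups.

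**Figure D1:**
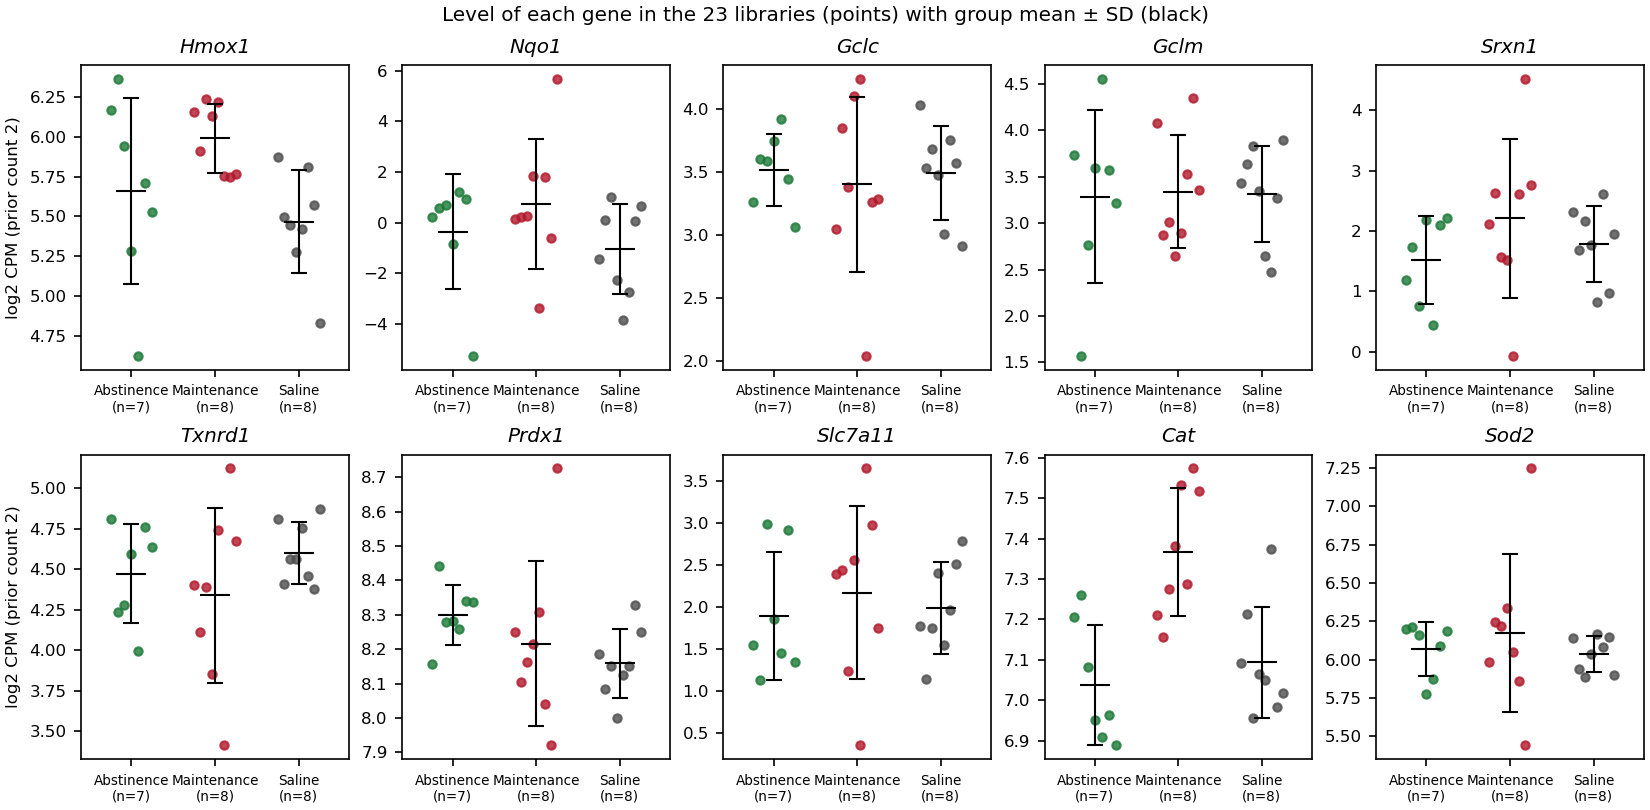
Level of each of the 10 genes as log2 CPM (prior count 2) in every library, by group, with the group means and SD drawn over the points. Cat lies below the Maintenance median in all 7 Abstinence libraries, and Nqo1, Prdx1 and Sod2 each have 1 high point, Maintenance 8.

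The 3 comparisons were read from 1 fit of 16121 genes: Maintenance against Saline for the state at the end of drug taking, Abstinence against Saline for the state after 21 days without the drug, and Abstinence against Maintenance for the difference between the drug groups. In Maintenance against Saline 0 of the 10 genes passed (edgeR, adjusted p under 0.05), where 0.707% of all genes tested did, 0.335% higher and 0.372% lower. DESeq2 called 1 of the 10, Cat, but it called 425 genes in all, where edgeR called 114. Hmox1, Nqo1 and Cat had an unadjusted edgeR p under 0.05, which makes 3 of 10, against 11.8% of all genes. Without Maintenance 8 this was 2 of 10, against 11.7% of all genes, and Nqo1 had an unadjusted edgeR p of 0.288. Without Maintenance 6, 7 and 8 it was 2 of 10, against 10.9%. With all libraries the log2 fold change was positive for 8 of the 10 with a median of 0.25. Of all genes 50.6% had a positive value, with a median of 0.0052. Without Maintenance 8 the median of the 10 was 0.17, with 8 positive, and without Maintenance 6, 7 and 8 it was 0.09, with 6 positive. The median of all genes was -0.03 in both of these fits. In Abstinence against Saline 0 of the 10 passed, where 0.0186% of all genes did (0.0124% higher and 0.0062% lower). An unadjusted edgeR p under 0.05 was found for 0 of the 10, against 4.39% of all genes. DESeq2 called 0 of the 10 there and 84 genes in all. The median log2 fold change of the 10 was 0.02, against 0.0078 for all genes. In Abstinence against Maintenance 1 of the 10 fell, Cat, and 0 rose, where 0.949% of all genes passed in either direction, 0.397% rose and 0.552% fell. Nqo1 and Srxn1 also had an unadjusted p under 0.05 there, where 11% of all genes did. Without Maintenance 8 the genes with such a p were Cat, Srxn1 and Prdx1, against 11.3% of all genes, and Nqo1 had 0.734 (edgeR). Without Maintenance 6, 7 and 8 it was 1 of the 10, against 11.4%. With all libraries the median over the 10 was -0.22, against 0.0064 for all genes. It was -0.16 without Maintenance 8 and -0.12 without Maintenance 6, 7 and 8, where the median of all genes was 0.03. The first and the third comparison share the Maintenance libraries, so their opposite medians are not separate results.

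**Figure D2:**
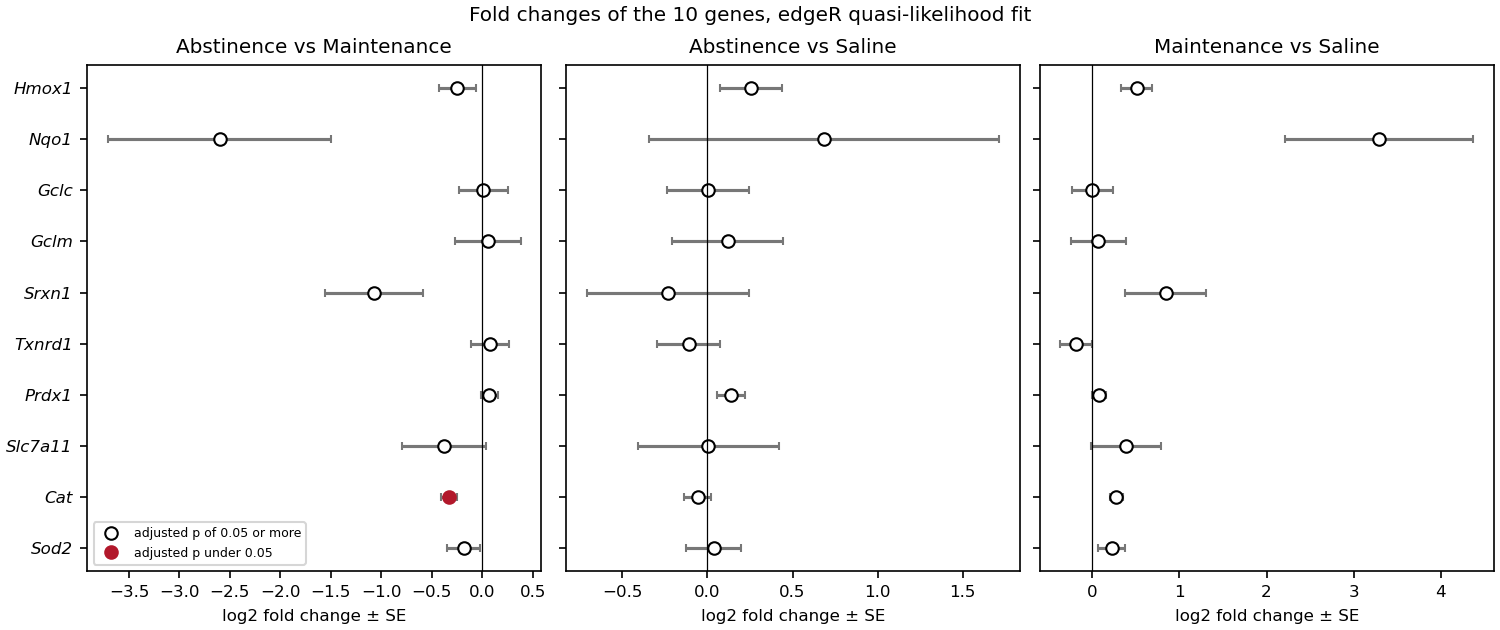
Log2 fold change of the 10 genes with its error in Abstinence against Maintenance, Abstinence against Saline and Maintenance against Saline. Cat in Abstinence against Maintenance, at -0.33, is the value that passed, and Nqo1 has the widest errors.

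The RNA of catalase (Cat) was lower after abstinence than at the end of drug taking, a call that some of the fits below lost. Cat (chromosome 2, 103453904 to 103485153, GRCm38.p6) encodes the peroxisomal enzyme that splits hydrogen peroxide into water and oxygen. It measured 119 to 153 CPM in Abstinence (median 125), 143 to 191 CPM in Maintenance (median 161) and 124 to 166 CPM in Saline (median 133). All 7 Abstinence libraries lay below the Maintenance median and 5 of them below the lowest Maintenance library, while Abstinence and Saline overlapped. Cat averaged 132 ± 13.9 CPM in Abstinence and 166 ± 18.3 CPM in Maintenance (SD), 0.795-fold, with a log2 fold change of -0.33 ± 0.08 (SE, edgeR adjusted p = 0.0399).

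Against Saline, which averaged 137 ± 13.8 CPM, Cat stood higher in Maintenance, with 8 of 8 libraries over the Saline median and 4 over the highest Saline library. That log2 fold change was 0.28 ± 0.08 and did not pass (edgeR adjusted p = 0.0938), but it passed by DESeq2 (0.30, adjusted p = 0.0122) and without Saline 6 (0.32, edgeR adjusted p = 0.0405). Abstinence against Saline gave -0.06 ± 0.08 (edgeR adjusted p = 0.999). The test over the 3 groups at once gave Cat an edgeR adjusted p of 0.0456, the 1 of 10 genes to pass, where 1.07% of all genes did. This call was lost in 14 of the 23 fits that each left out 1 library, those without Abstinence 3 to 7, Maintenance 4, 5, 7 or 8, or Saline 1, 3, 4, 5 or 7, with adjusted p from 0.0515 to 0.0865.

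The fall of Cat in Abstinence relative to Maintenance kept its direction when each library was left out in turn, with log2 fold changes from -0.37 to -0.31, and it passed in 15 of the 23 fits. It missed the threshold without Abstinence 3, 4, 5, 6 or 7 (edgeR adjusted p = 0.0775, 0.105, 0.071, 0.0767 and 0.0823 in that order) and without Maintenance 4, 5 or 7 (0.0533, 0.0531 and 0.0547 in that order). Without Maintenance 8 it was -0.32 ± 0.08 and passed (adjusted p = 0.0353). Without Maintenance 6, 7 and 8 together it was -0.28 ± 0.08 and did not (adjusted p = 0.106). In this bulk RNA, a change in the number of cells of a type and a change in RNA per cell cannot be told apart.

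Red blood cells are rich in catalase, and 7 erythrocyte markers were followed for that reason. Their sum was 81.5 to 766 CPM in Abstinence (median 429), 60 to 503 CPM in Maintenance (median 110) and 162 to 691 CPM in Saline (median 475). The sum had its lowest median in Maintenance and its ranges overlapped between all groups, and the part of red cells in the Cat values was not tested. Of the 7 markers 6 were tested and 0 passed in any comparison, and Slc4a1, the anion exchanger of red cells, had 0 counts in all Maintenance libraries. Oligodendrocyte markers summed to medians of 3578 CPM in Abstinence, 3921 CPM in Maintenance and 1747 CPM in Saline, and neutrophil markers to 58.1, 79.5 and 128 CPM in the same group order. With the mean levels of these last 2 lists as covariates, Cat in Abstinence against Maintenance was -0.32 ± 0.07 (edgeR adjusted p = 0.0308). In the same fit Maintenance against Saline was 0.41 ± 0.09 (adjusted p = 0.0553), and Abstinence against Saline turned sign, to 0.10 ± 0.10 (adjusted p = 1).

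**Figure D3:**
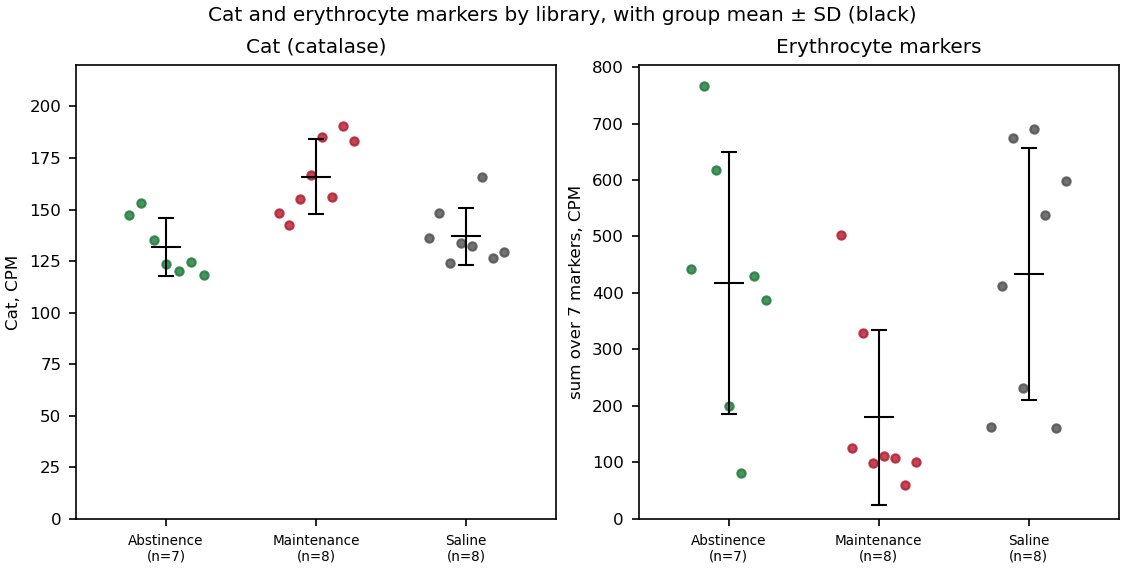
Cat and the summed erythrocyte markers in CPM, library by library and by group. Cat spans 119 to 153 CPM in Abstinence and 143 to 191 CPM in Maintenance, while the erythrocyte sum has medians of 429 CPM in Abstinence and 110 CPM in Maintenance.

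Over the 23 libraries, the genes whose log2 CPM ran most like that of Cat were Hspa8, Cdc123 and Stip1. Hspa8 encodes the constitutive Hsp70 protein, Cdc123 a factor that assembles the translation initiation factor eIF2, and Stip1 the adaptor between Hsp70 and Hsp90. Their Spearman coefficients were 0.85, 0.83 and 0.82, given as a description over libraries that share the 3 groups and the same scaling, among 9458 genes that averaged 2 or more in log2 CPM.

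Sod2 (chromosome 17, 13007839 to 13018119) encodes the manganese superoxide dismutase of mitochondria, which turns superoxide into hydrogen peroxide. It measured 54.8 to 74.1 CPM in Abstinence (median 71.5), 43.5 to 152 CPM in Maintenance (median 70.3) and 59.1 to 71.9 CPM in Saline (median 66.8). The 3 groups overlapped, and Maintenance held both the lowest library of the 23, Maintenance 7, and the highest, Maintenance 8. Maintenance against Saline gave a log2 fold change of 0.22 ± 0.16 (edgeR adjusted p = 0.663) with Maintenance 8 and 0.0019 ± 0.10 (adjusted p = 0.998) without it. In Abstinence against Maintenance it was -0.18 ± 0.16 (adjusted p = 0.811) with that library and 0.02 ± 0.11 (adjusted p = 0.98) without it, so the sign rested on 1 library. Abstinence against Saline gave 0.04 ± 0.16 (adjusted p = 0.999).

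Prdx1 (chromosome 4, 116685599 to 116700000), the gene with the match to the core letters shown above at -133, encodes a peroxiredoxin that reduces hydrogen peroxide with electrons from thioredoxin. It measured 285 to 348 CPM in Abstinence (median 311), 242 to 423 CPM in Maintenance (median 292) and 256 to 321 CPM in Saline (median 284). All 7 Abstinence libraries were above the Saline median and 3 of them above the highest Saline library. The log2 fold change in Abstinence against Saline was 0.14 ± 0.08 (edgeR unadjusted p = 0.106, adjusted p = 0.999), and it was 0.13 ± 0.06 in the fit without Maintenance 8 (unadjusted p = 0.0456, adjusted p = 0.917). Maintenance against Saline gave 0.07 ± 0.08 (adjusted p = 0.833) with Maintenance 8 and -0.02 ± 0.06 (adjusted p = 0.966) without it. Abstinence against Maintenance gave 0.07 ± 0.08 (adjusted p = 0.894) with that library and 0.14 ± 0.06 (adjusted p = 0.352) without it. Reads of Prdx1 and of AV051173, a gene that overlaps it, cannot be told apart where strand is not stated, but AV051173 had 870 counts in all, against 530511 for Prdx1.

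The reductases that serve the peroxiredoxins varied most within Maintenance. Txnrd1 (chromosome 10, 82833951 to 82897724) encodes thioredoxin reductase 1, which passes electrons from NADPH to thioredoxin. It measured 15.9 to 28.1 CPM in Abstinence (median 24.1), 10.6 to 34.9 CPM in Maintenance (median 21) and 20.8 to 29.2 CPM in Saline (median 23.6). The groups overlapped, with Maintenance 6 the lowest and Maintenance 7 the highest of the 23. Its log2 fold change was -0.19 ± 0.18 in Maintenance against Saline (edgeR adjusted p = 0.785), -0.11 ± 0.19 in Abstinence against Saline (0.999) and 0.08 ± 0.19 in Abstinence against Maintenance (0.957). Without Maintenance 7 the first was -0.32 ± 0.17 (adjusted p = 0.459) and the last 0.20 ± 0.17 (adjusted p = 0.76). The overlapping genes Gm38560 and Eid3 had 2936 and 1965 counts in all, against 40401 for Txnrd1, and cannot be told apart from it without strand.

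Srxn1 (chromosome 2, 152105524 to 152111376) encodes sulfiredoxin, which rescues over-oxidised peroxiredoxins. It measured 1.34 to 4.64 CPM in Abstinence (median 3.29), 0.929 to 22.8 CPM in Maintenance (median 5.22) and 1.75 to 6.06 CPM in Saline (median 3.61). All 7 Abstinence libraries lay below the Maintenance median, yet Maintenance held both the lowest library, Maintenance 5, and the highest, Maintenance 7. Abstinence against Maintenance gave a log2 fold change of -1.07 ± 0.48 (edgeR adjusted p = 0.388), and -0.46 without Maintenance 7. In Maintenance against Saline it was 0.84 ± 0.46 (adjusted p = 0.511), 0.22 without Maintenance 7, and -0.11 ± 0.42 without Maintenance 6, 7 and 8 together (adjusted p = 0.982). Abstinence against Saline gave -0.23 ± 0.48 (adjusted p = 0.999). The part of the low gene detection of Maintenance 6 and 7 in these ranges was not tested.

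Of the 10 genes, those of glutathione supply, Gclc, Gclm and Slc7a11, did not pass in any comparison, with unadjusted p over 0.05 throughout (edgeR). Gclc (chromosome 9, 77754535 to 77794489) encodes the catalytic subunit of glutamate-cysteine ligase, the rate-limiting enzyme of glutathione synthesis. It measured 8.33 to 15.1 CPM in Abstinence (median 12), 4.08 to 18.9 CPM in Maintenance (median 10.1) and 7.49 to 16.3 CPM in Saline (median 11.7). The Saline and Abstinence ranges lay inside that of Maintenance, where Maintenance 6 was lowest and Maintenance 5 highest. The mean was 11.6 CPM in each group, with an SD of 2.28 in Abstinence, 4.92 in Maintenance and 2.86 in Saline. The log2 fold change in Maintenance against Saline was -0.0025 ± 0.23 (edgeR adjusted p = 0.999), with a 95% interval from -0.46 to 0.46, so changes of that size are not excluded. In Abstinence against Saline it was 0.0041 ± 0.24, with an interval from -0.47 to 0.48, and in Abstinence against Maintenance 0.0066 ± 0.24, with an interval from -0.47 to 0.48 (adjusted p = 0.999 in both).

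Gclm (chromosome 3, 122245487 to 122267215) encodes the modifier subunit of the same ligase. Its match to the core letters, shown above at -134, is counted from a start inside this span and not from its first base. Gclm measured 2.94 to 23.4 CPM in Abstinence (median 11.9), 6.23 to 20.3 CPM in Maintenance (median 9.10) and 5.52 to 14.9 CPM in Saline (median 10.4). Abstinence held the lowest library, Abstinence 2, and the highest, Abstinence 5, and all groups overlapped. The log2 fold change was 0.07 ± 0.32 in Maintenance against Saline (edgeR adjusted p = 0.97), 0.12 ± 0.33 in Abstinence against Saline (0.999) and 0.05 ± 0.33 in Abstinence against Maintenance (0.988). Without Maintenance 7, the highest of its group, the first turned to -0.12 ± 0.31 (adjusted p = 0.943) and the last was 0.23 ± 0.32 (adjusted p = 0.891).

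Slc7a11 (chromosome 3, 50364936 to 50499087) encodes xCT, the transport subunit of the exchanger that imports cystine for glutathione in exchange for glutamate. It measured 2.18 to 7.96 CPM in Abstinence (median 2.90), 1.26 to 12.6 CPM in Maintenance (median 5.34) and 2.19 to 6.87 CPM in Saline (median 3.64). The groups overlapped, with Maintenance 5 the lowest and Maintenance 6 the highest of the 23. The log2 fold change in Maintenance against Saline was 0.39 ± 0.40 (edgeR adjusted p = 0.814), 0.09 without Maintenance 6 and -0.06 ± 0.40 without Maintenance 6, 7 and 8 together. For Abstinence against Saline it was 0.0048 ± 0.41 (adjusted p = 0.999), and in Abstinence against Maintenance -0.38 ± 0.42 (adjusted p = 0.874), which was 0.06 ± 0.41 without Maintenance 6, 7 and 8.

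Hmox1 (chromosome 8, 75093618 to 75100593) encodes the inducible heme oxygenase, which breaks heme into biliverdin, iron and carbon monoxide. It measured 24.6 to 82.4 CPM in Abstinence (median 52.3), 53.7 to 75.6 CPM in Maintenance (median 65.1) and 28.4 to 58.7 CPM in Saline (median 44.4). All 8 Maintenance libraries were above the Saline median and 5 above the highest Saline library, whereas Abstinence held both the lowest and the highest of the 23. The averages were 64.2 ± 9.61 CPM in Maintenance and 45.1 ± 9.54 CPM in Saline (SD), with a log2 fold change of 0.51 ± 0.18 that did not pass over all genes (edgeR unadjusted p = 0.00792, adjusted p = 0.189). Leaving out each library in turn gave 0.43 to 0.57, with adjusted p from 0.107 to 0.317. Without Maintenance 8, which was near the low end of its group, it was 0.54 ± 0.18 (adjusted p = 0.169).

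In Abstinence Hmox1 averaged 54.0 ± 19.8 CPM, with a log2 fold change of 0.26 ± 0.18 against Saline (edgeR adjusted p = 0.999) and -0.25 ± 0.18 against Maintenance (adjusted p = 0.727). Macrophages at the borders of the brain can also express Hmox1, and 8 of their markers summed to 255 to 313 CPM in Abstinence (median 291), 267 to 508 CPM in Maintenance (median 340) and 241 to 436 CPM in Saline (median 273). The median of these sums had the same order over the groups as that of Hmox1, 0 of the 8 markers passed in any comparison, and their part in the Hmox1 values was not tested. The genes that ran most like Hmox1 over the 23 libraries were Rhoh, Slfn8 and Hsp90b1, the endoplasmic reticulum Hsp90, with Spearman coefficients of 0.79, 0.76 and 0.75.

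Nqo1 (chromosome 8, 107388225 to 107403205), a classic NRF2 target, encodes the quinone reductase NAD(P)H quinone dehydrogenase 1. It measured 0 to 2.27 CPM in Abstinence (median 1.47), 0.0706 to 50.9 CPM in Maintenance (median 1.15) and 0.0437 to 2.00 CPM in Saline (median 0.685). The library at 0 was Abstinence 7, in which a count of 0 allows up to 0.0338 CPM by counting error alone. The highest was Maintenance 8, with 4407 counts, while the Saline libraries held 3 to 143 counts, and the groups overlapped apart from that library. Maintenance against Saline gave a log2 fold change of 3.29 ± 1.08 (edgeR adjusted p = 0.161) with Maintenance 8 and 0.99 ± 0.92 (adjusted p = 0.775) without it. The mean in Maintenance was 7.74 ± 17.5 CPM (SD, n = 8) with it and 1.58 ± 1.37 CPM (SD, n = 7) without it, against 0.79 ± 0.73 CPM in Saline.

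In Abstinence, with a mean of 1.27 ± 0.79 CPM (SD), the log2 fold change of Nqo1 was 0.69 ± 1.03 against Saline (edgeR adjusted p = 0.999). Against Maintenance it was -2.60 ± 1.11 (adjusted p = 0.352) with Maintenance 8 and -0.32 ± 0.94 (adjusted p = 0.969) without it. The genes that ran most like Nqo1 over the 23 libraries were Kcnk1, Golga1 and Ndufaf5, with Spearman coefficients of 0.76, 0.73 and 0.69. The high Nqo1, Sod2 and Prdx1 of Maintenance 8 stood in the library with the high sum of choroid plexus and ependymal markers. Within that list Ttr, which encodes transthyretin, measured 40528 CPM there and 0 to 55.6 CPM elsewhere, and Enpp2, which encodes autotaxin, 31127 CPM there and 23.1 to 318 CPM elsewhere. Ttr and Enpp2 made up most of the sum in that library. The part of cells other than microglia in the values of Nqo1, Sod2 and Prdx1 was not tested.

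**Figure D4:**
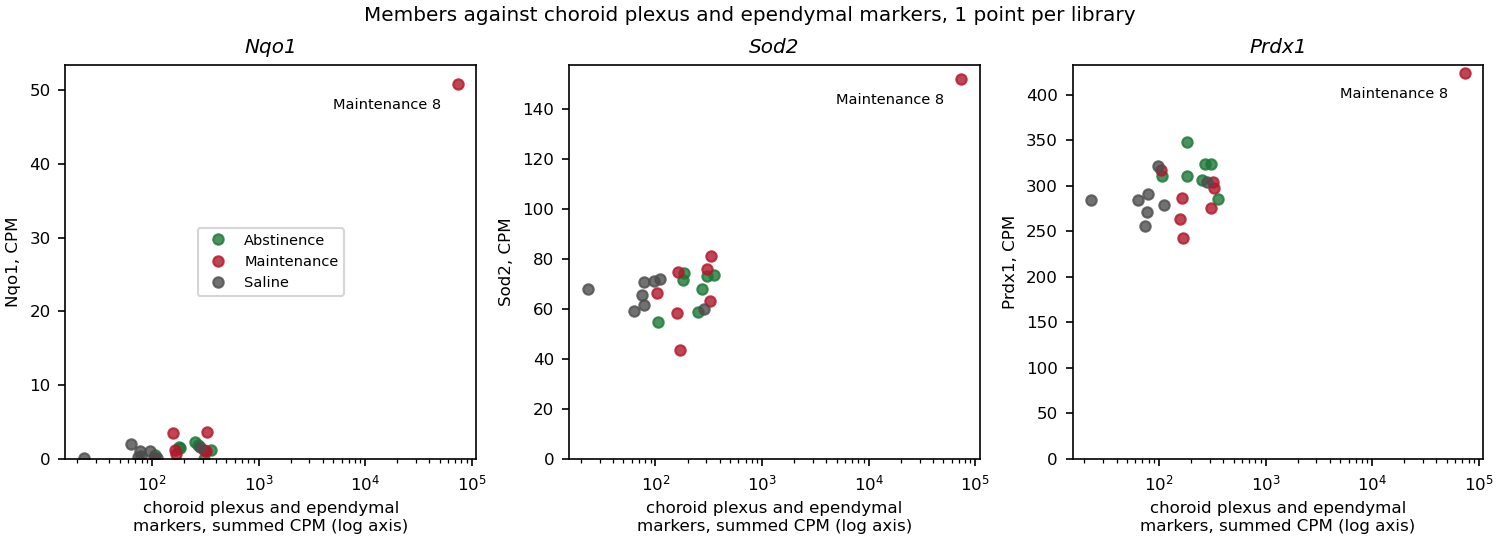
Nqo1, Prdx1 and Sod2 in CPM against the summed CPM of 8 choroid plexus and ependymal markers, 1 point per library coloured by group. Maintenance 8 lies alone at 73704 CPM of these markers, with 50.9 CPM of Nqo1, 423 CPM of Prdx1 and 152 CPM of Sod2, the highest value of the 23 libraries in each panel.

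The wider system was read from 81 further genes in 7 lists, of which 80 were tested and Aox1 was not. By edgeR 0 of the 80 passed in each comparison. Of all genes, 0.707% passed in Maintenance against Saline, 0.0186% in Abstinence against Saline and 0.949% in Abstinence against Maintenance. At such shares a count of 0 among 80 is not a result about these genes. An unadjusted edgeR p under 0.05 was found for 11 in Maintenance against Saline, 4 in Abstinence against Saline and 13 in Abstinence against Maintenance. Of all genes, 11.8%, 4.39% and 11% had such a p in these comparisons. DESeq2 called 1 (Gsta4), 0 and 2 (Ftl1 and Gsta4) of the 80 in the same order. Over all genes it called 425 in the first comparison and 84 in the second, and its total for the third is given further below. The median log2 fold change of the 80 was 0.02, 0.03 and -0.01 in that order. Gsta4, called by DESeq2, measured 124 CPM in Maintenance 8, against a Maintenance median of 12.6 CPM. No DESeq2 value without that library is given here. In Maintenance against Saline the list medians were 0.05 for the 12 genes of NRF2 control, 0.09 for the 19 glutathione genes, -0.02 for the 20 thiol genes, 0.05 for the 3 superoxide genes, 0.02 for the 8 heme and iron genes, 0.0065 for the 6 genes of NADPH supply and 0.02 for the 12 tested detoxification genes.

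Nfe2l2, the gene of NRF2, averaged 281 ± 23.3 CPM in Abstinence, 305 ± 32.0 CPM in Maintenance and 291 ± 25.5 CPM in Saline (SD), with a log2 fold change of 0.07 ± 0.07 in Maintenance against Saline (edgeR adjusted p = 0.813). Keap1 averaged 41.0 ± 6.88 CPM in Abstinence, 34.5 ± 9.33 CPM in Maintenance and 40.8 ± 6.63 CPM in Saline, with -0.24 ± 0.15 in Maintenance against Saline (adjusted p = 0.57). Bach1, a repressor that competes with NRF2 for its sites, averaged 32.8 ± 3.75, 29.5 ± 4.88 and 31.3 ± 3.94 CPM in the same group order. These differences were within the spread of the libraries. Cul3, the ubiquitin ligase scaffold that KEAP1 recruits, had the smallest p of the control genes over the 3 groups, at 0.46 ± 0.21 in Maintenance against Saline (adjusted p = 0.365). Without Maintenance 8, its highest Maintenance library, that value was 0.30 ± 0.20 (edgeR adjusted p = 0.612).

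Among the peroxidases, Gpx1, the abundant cytosolic glutathione peroxidase, averaged 543 ± 54.7 CPM in Abstinence, 568 ± 58.1 CPM in Maintenance and 580 ± 48.2 CPM in Saline, with log2 fold changes from -0.10 to -0.03 over the 3 comparisons. Gpx4, which reduces lipid peroxides, averaged 120 ± 13.3 CPM in Abstinence, 143 ± 89.4 CPM in Maintenance and 129 ± 8.78 CPM in Saline, and 112 ± 18.7 CPM in Maintenance without Maintenance 8. Its log2 fold change in Maintenance against Saline was 0.14 ± 0.21 (edgeR adjusted p = 0.89) with that library and -0.21 ± 0.09 (adjusted p = 0.335) without it. Sod1, the cytosolic superoxide dismutase, behaved likewise, at 0.05 ± 0.21 (adjusted p = 0.965) with it and -0.22 ± 0.15 (adjusted p = 0.621) without it. For Prdx5, a peroxiredoxin found in several compartments, the values were -0.0057 ± 0.12 (adjusted p = 0.995) and -0.18 ± 0.06 (adjusted p = 0.129).

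Gpx8, a peroxidase of the endoplasmic reticulum, had the smallest p of the glutathione list, with 3.47 ± 0.91 in Maintenance against Saline (edgeR adjusted p = 0.081), and 1.19 ± 0.56 without Maintenance 8 (adjusted p = 0.396). Sod3, the extracellular superoxide dismutase, gave 0.99 ± 0.59 with that library (adjusted p = 0.564) and 0.0023 ± 0.43 without it (adjusted p = 0.999). Ephx1, the microsomal epoxide hydrolase, gave 0.83 ± 0.27 with it (adjusted p = 0.152) and 0.34 ± 0.13 without it (adjusted p = 0.229). Maintenance 8 was the highest Maintenance library for each of these 3 genes.

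The ferritin light chain gene Ftl1, an NRF2 target whose product stores iron with that of Fth1, averaged 3566 ± 182 CPM in Abstinence, 4009 ± 371 CPM in Maintenance and 3963 ± 170 CPM in Saline. In Abstinence against Maintenance it gave -0.17 ± 0.06 (edgeR adjusted p = 0.154) with all libraries and fell by 0.21 ± 0.05 on the log2 scale without Maintenance 8 (adjusted p = 0.016). In Abstinence against Saline it gave -0.15 ± 0.06 (adjusted p = 0.774). Fth1 averaged 2576 ± 215 CPM in Abstinence, 2636 ± 196 CPM in Maintenance and 2606 ± 328 CPM in Saline, which differed by less than their spread.

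Thioredoxin itself (Txn1) averaged 48.9 ± 5.45 CPM in Abstinence, 43.6 ± 5.15 CPM in Maintenance and 46.1 ± 3.6 CPM in Saline, with 0.17 ± 0.09 in Abstinence against Maintenance (edgeR adjusted p = 0.537). Prdx6, a peroxiredoxin that also acts on phospholipids, had medians of 94.8 CPM in Abstinence, 94.5 CPM in Maintenance and 74.7 CPM in Saline. It gave 0.35 ± 0.14 in Abstinence against Saline (adjusted p = 0.878) and 0.31 ± 0.13 in Maintenance against Saline (adjusted p = 0.318). Idh1, a cytosolic source of NADPH, gave 0.23 ± 0.09 in Maintenance against Saline (adjusted p = 0.277) with Maintenance 8, its highest Maintenance library. Without that library it gave 0.17 ± 0.08 (edgeR adjusted p = 0.447).

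**Figure D5:**
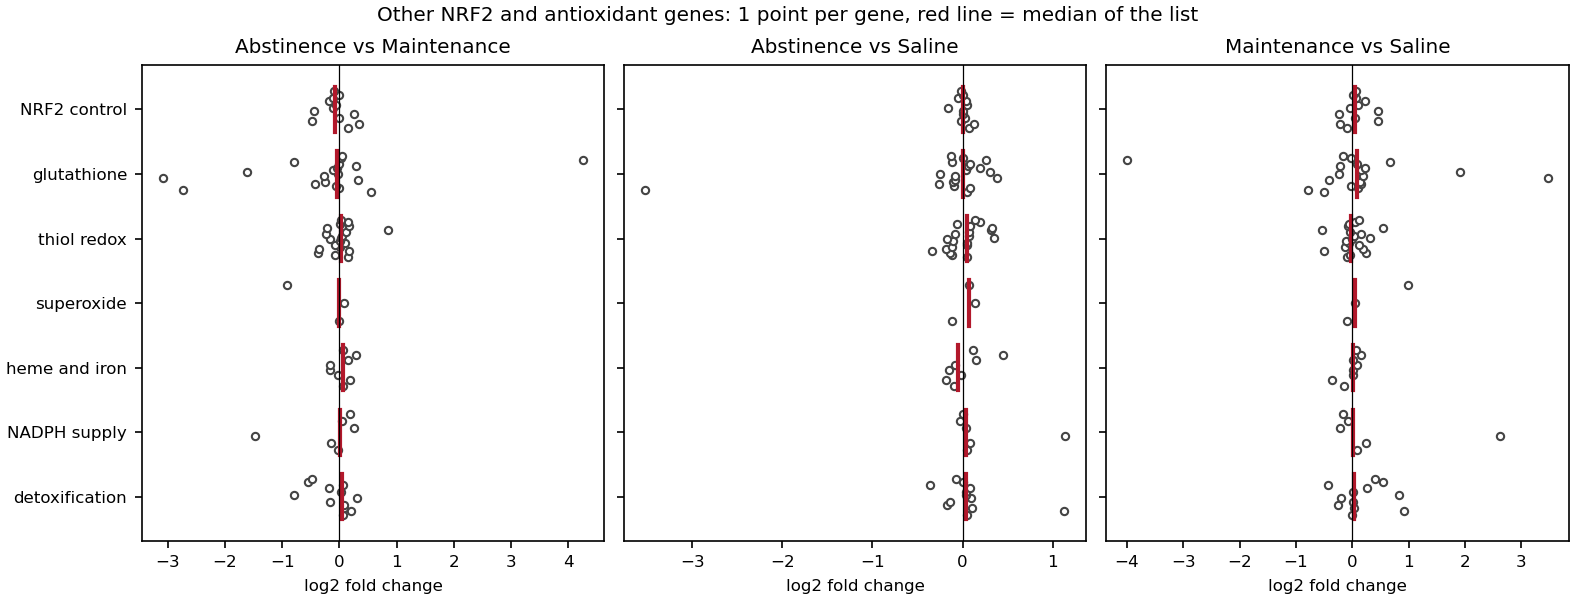
Log2 fold change of the 80 further NRF2 and antioxidant genes by list in each comparison, 1 point per gene, with a line at the median of each list. The medians of the 80 are 0.02 in Maintenance against Saline, 0.03 in Abstinence against Saline and -0.01 in Abstinence against Maintenance. By edgeR 0 of the 80 passed, where 0.707%, 0.0186% and 0.949% of all genes did in that order.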

How the data were processed

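Per the labels' protocols, total RNA went into a low-input library kit. The submitters' processing notes name STAR 2.7.10a, StringTie 2.1.5, DESeq2 1.38.3, cutadapt 1.18 and Trim Galore 0.6.7, and the build mm10 (GRCm38). Order, settings and strand are not given in the sources used here. The deposited table holds whole-number counts per gene symbol. A second table, named as normalized, held the same deposited counts for 17 libraries (0 of 611592 values differed) and defined 1 alternative.

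Genes were kept with filterByExpr by group (minimum count 10, minimum total 15), scaled with TMM and fitted over all 23 libraries with group as the factor (edgeR 4.0.16, quasi-likelihood, robust). The threshold was a p adjusted by Benjamini-Hochberg over 16121 genes under 0.05. The SE is the log2 fold change divided by the square root of F, and 95% intervals are 1.96 SE on either side. The code was tested on simulated data. Alternatives were RLE factors, no filter, DESeq2 1.42.0, only the groups compared, a replicate block, marker covariates, and libraries left out. No 2 libraries of a group were near-identical.

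Members, lists, alternatives and the rule for named genes were chosen with earlier results of these data known. The rule names all members, Nfe2l2, Keap1, Bach1, Gpx1, Gpx4, Sod1, Txn1, Prdx5, Fth1 and Ftl1, and the gene of smallest p over the 3 groups in each list; Gsta4, Abcc1 and Aox1 were named after their values were seen. Of 183 list entries 180 matched by symbol and 2 by synonym. A further marker is not reported here. Positions are from RefSeq.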

Additional observations from a re-analysis of the deposited data

Results flagged for a closer look

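In 78 sets of 1 gene in 1 group, 10 held a library far from the others by Dixon's criterion. Some of the genes, Gpx8, Sod3 and Ephx1 among them, were named for their small p in these data, and the sets share libraries. The count is therefore not set against a chance rate. Of the 10 sets, 9 were in Maintenance 8, the library with the high sum of choroid plexus and ependymal markers. Nqo1 measured 50.9 CPM there, against 3.54 CPM in the next Maintenance library, Prdx1 423 CPM against 317 CPM, and Sod2 152 CPM against 81.0 CPM. The other genes were Gpx4 (360 CPM against 137 CPM), Sod1 (126 CPM against 59.3 CPM), Prdx5 (357 CPM against 185 CPM), Gpx8 (144 CPM against 16.6 CPM), Sod3 (120 CPM against 33.6 CPM) and Ephx1 (200 CPM against 67.5 CPM). Srxn1 in Maintenance 7 measured 22.8 CPM, against 6.77 CPM in the next library.

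Cat differed between the drug groups by the direct test, with a log2 fold change of -0.33 in Abstinence against Maintenance (edgeR adjusted p = 0.0399), and 7 of 7 Abstinence libraries lay below the Maintenance median.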

How the results depend on the processing

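Of the 10 genes, Cat alone changed its call. In Abstinence against Maintenance 1 passed in the fit reported, and 0 with only the compared groups fitted (Cat -0.34, edgeR adjusted p = 0.0886), with the 17 libraries of the second table (-0.29, 0.077) or without Maintenance 6, 7 and 8 (-0.28, 0.106), and 0 to 1 when each library was left out. In Maintenance against Saline DESeq2 called 1, and leaving out a library gave 0 to 1. In Abstinence against Saline every alternative gave 0. Over the 3 groups (alternatives added after the data were seen) Cat was lost, leaving 0, with no filter, the replicate block, the 17 libraries or without Maintenance 6, 7 and 8, and in 14 of the 23 fits with a library left out (0 to 1).

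Gclm in Maintenance against Saline was -0.32 with the 17 libraries and -0.29 with the marker covariates, against 0.07. Other fold changes also turned sign: Srxn1 in Maintenance against Saline was -0.057 with the 17 libraries and -0.11 without Maintenance 6, 7 and 8, Txnrd1 there was 0.0076 with the marker covariates, and Sod2 in Abstinence against Maintenance was 0.023 without Maintenance 8. The cause was not tested.

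Of the 80 further genes, DESeq2 called 1 in Maintenance against Saline (leaving out a library gave 0 to 1). In Abstinence against Maintenance DESeq2 called 2, the 17 libraries gave 1 (Ftl1), leaving out Maintenance 6, 7 and 8 gave 2 (Abcc1 and Ftl1), and leaving out a library gave 0 to 1. In Abstinence against Saline the count was 0 throughout.

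Over all genes the 114 calls in Maintenance against Saline became 57 with only the compared groups, 69 with the block, 176 with the 17 libraries, 39 with covariates and 425 with DESeq2, and ranged from 42 (without Saline 3) to 197 (without Saline 8) with a library left out. The 3 in Abstinence against Saline became 5, 4, 56, 0 and 84 in that order, 15 without Maintenance 6, 7 and 8, and 1 to 15 with a library left out. The 153 in Abstinence against Maintenance became 64 with only the compared groups, 238 with the 17 libraries and 529 with DESeq2, and 89 (without Abstinence 3) to 265 (without Maintenance 8) with a library left out.

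The groups share replicate numbers in the labels, but the numbers did not pair the libraries: over 22 pairs of the same number the correlation of deviations ran from -0.12 to 0.09. With the replicate block 0 of the 10 genes passed in Abstinence against Maintenance (Cat -0.33, adjusted p = 0.111). Nqo1 is limited by few counts, with 0 in Abstinence 7 and 3 in Saline 5. These libraries held 86.5 and 68.2 M counts in total, and Saline 2, at 57.2 M, held 58 Nqo1 counts.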

Other observations

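How the 10 genes varied together within groups was described for 45 pairs of log2 CPM over the 23 libraries, with group means taken off and two-sided permutation of libraries within groups, adjusted over the 45 pairs by Benjamini-Hochberg. None of the 45 passed by both Pearson's r and Spearman's rho. Gclm and Sod2 passed by rank (rho = -0.68, permutation p = 0.00082, adjusted p = 0.0369) but not by r (-0.42, permutation p = 0.0301, adjusted p = 0.407), and r was -0.43 without Abstinence 2 and 5. The pass by rank was lost with RLE factors (rho = -0.60, permutation p = 0.00422, adjusted p = 0.19) and without Maintenance 6, 7 and 8 (rho = -0.67, permutation p = 0.00295, adjusted p = 0.0664). Prdx1 and Sod2 had r = 0.78 (permutation p = 0.00528, adjusted p = 0.141) and rho = 0.40 (permutation p = 0.0823, adjusted p = 0.659), and r was 0.20 without Maintenance 7 and 8, so it rested on those libraries. Hmox1 and Gclm had r = -0.64 (permutation p = 0.00626, adjusted p = 0.141) and rho = -0.50 (permutation p = 0.0241, adjusted p = 0.361), and r was -0.50 without Abstinence 5 and Saline 8. The pairs were chosen after their values were seen.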
